A study of Homo sapiens with 12 samples.

Results

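The genes described here carry out or govern the oxidation of fatty acids in mitochondria and peroxisomes. They were given as a list of 47 gene symbols, and those that the platform annotation named among the deposited probe sets were kept. That left 22 genes of the 14884 tested, each represented by its brightest probe set over all arrays. The rule itself uses no difference between the groups, but the list was drawn up with earlier results of these data known. The genes were measured in HepG2, an established human liver tumour line, as log2 intensities on 12 Affymetrix arrays at 120 h, with 3 arrays for each of 4 small interfering RNAs. HepG2 cells have lost exon 3 of the β-catenin gene on 1 allele and so hold a truncated β-catenin, which lacks the sites that mark the protein for degradation, beside the full-length protein. sißCat-WT cells received an RNA against the full-length form, sißCat-mut cells an RNA against the truncated form, sißCat-both cells an RNA against both forms, and siCtrl cells a control RNA. All groups, siCtrl included, carry the deletion. The labels name 1 RNA per target, so an effect of losing a form and an effect of that RNA's own sequence cannot be told apart. They call the samples triplicates and name no separate cultures. The spread behind each p-value is thus that of 3 samples and may be technical.

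Fatty acids are first joined to coenzyme A by acyl-CoA synthetases and then carried into mitochondria as carnitine esters. Inside, a repeating cycle of dehydrogenation, hydration, a further dehydrogenation and thiolytic cleavage shortens the chain, and electrons from its first step pass through the electron transfer flavoprotein and its dehydrogenase to the respiratory chain. Peroxisomes run a similar cycle on very long and branched chains and on bile acid precursors, and pass shortened chains to mitochondria. In liver many of these genes are known targets of the nuclear receptor PPARα.

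Of the 25 listed genes not analysed here, 9 are the whole class of acyl-CoA dehydrogenases on the list (ACADL, ACADM, ACADS, ACADVL, ACAD9, ACAD10, ACAD11, ACADSB and ACAD8), which catalyse the first step of the mitochondrial cycle. The others are ACSL3, CPT1B, ETFA, ETFB, ECHS1, HADHA, HADHB, DECR1, ACOX2, ACOX3, EHHADH, SCP2, AMACR, DECR2, BDH1 and PDK4. What follows therefore covers activation, carnitine transfer, later steps of the cycle, a part of the peroxisomal route and the thioesterases.

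The regions before the start sites of CROT and PHYH are shown because these are, with ACSM3, the genes with the largest called differences from siCtrl. Each is given as RefSeq has it in GRCh38.p14, 250 bases that end at the start site, read on the gene's strand, with capitals marking GC boxes (GGGCGG) and CCAAT boxes on either strand. CROT lies at chr7:87345414-87345663 on the plus strand and PHYH at chr10:13299764-13300013 on the minus strand.
CROT: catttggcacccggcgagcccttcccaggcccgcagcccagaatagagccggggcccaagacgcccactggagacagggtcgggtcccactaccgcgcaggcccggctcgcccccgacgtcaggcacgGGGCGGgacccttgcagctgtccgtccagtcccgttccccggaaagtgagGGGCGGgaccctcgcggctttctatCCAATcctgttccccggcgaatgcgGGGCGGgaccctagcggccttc
PHYH: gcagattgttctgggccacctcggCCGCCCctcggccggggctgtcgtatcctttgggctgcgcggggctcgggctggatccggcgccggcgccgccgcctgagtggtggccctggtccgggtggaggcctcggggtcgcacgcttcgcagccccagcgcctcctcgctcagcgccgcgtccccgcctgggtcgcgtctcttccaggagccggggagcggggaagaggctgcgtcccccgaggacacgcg
The CROT region holds 3 GC boxes, each 50 bases after the one before, and 1 CCAAT box, and 70.8% of its bases are G or C. The PHYH region holds 1 GC box and is 76% G or C. Both boxes were added to the search after these letters had been read, and GC boxes and CCAAT boxes occur in 45.0% and 34.6% of the 35116 RefSeq windows of 300 bases. A PPAR element written as AGGNCANAGGNCA was searched for on both strands and was found in 0 of 22 windows of the 17 genes that had one, and in 0.31% of all windows. The TCF motif CTTTGAT, through which TCF factors and β-catenin are known to act on DNA, was found on either strand in 1 of the 22 windows, against 2.62% of all windows. That match lies 214 bases before a start site of HADH, a dehydrogenase of the mitochondrial cycle. Another HADH window, upstream at chr4:107989639-107989938, had 0 TCF matches. The match is shown at chr4:108004385-108004415 on the plus strand, with the motif in capitals.
HADH: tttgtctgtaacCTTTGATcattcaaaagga
A match is a stretch of letters and not a site shown to be bound, and windows without a match say nothing about the factor.

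Across genes, arrays of one group had correlations of 0.994 to 0.997, and the medians of the arrays over all probe sets lay between 4.71 and 4.78, near which differences are compressed. The targeted gene was not analysed here, so how far each form was lowered was not measured. Of 12 listed hepatocyte genes 9 were measured, and their mean level on an array was 12 to 12.2 in sißCat-WT, 12.8 in sißCat-mut, 12.7 in sißCat-both and 12.2 to 12.3 in siCtrl cells. Against siCtrl 2 of these 9 fell in sißCat-WT cells, 7 rose in sißCat-mut cells, and 8 rose and 1 fell in sißCat-both cells, where over all 14884 genes 4.97% fell in sißCat-WT cells, 12% rose in sißCat-mut cells, and 15.5% rose and 18.1% fell in sißCat-both cells. Fibroblast markers (2 of 7 measured, mean 2.99 to 3.22) and endothelial markers (3 of 5, mean 3.99 to 4.46) had means below the array medians on all arrays, although the endothelial gene PECAM1, named after its values were seen, exceeded the median on 4 arrays. Another endothelial gene, VWF, rose by 0.33 ± 0.10 in sißCat-mut cells and by 0.37 ± 0.10 in sißCat-both cells (limma adjusted p = 0.0236 and 0.00863). Of the leukocyte markers only LYZ, CD68 and CD14 were measured, at a mean of 9.23 to 9.57. LYZ fell by 1.13 and CD14 rose by 0.70 in sißCat-both cells, CD14 rose by 0.50 in sißCat-WT cells, and LYZ fell by 0.39 and CD68 rose by 0.48 in sißCat-mut cells. The part of these markers in the results was not tested. In an earlier look at these data the first arrays of the sißCat-mut and sißCat-both groups stood apart on Wnt target genes. Without both arrays 10, 11 and 13 of the 22 genes were called against siCtrl in sißCat-WT, sißCat-mut and sißCat-both cells, in place of 9, 12 and 14. Over all 14884 genes 1564, 3489 and 4853 were called in place of 1513, 3810 and 5000. In such bulk samples fewer cells of a kind and less RNA per cell cannot be told apart.

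Knockdown of the full-length form lowered a group of mitochondrial and peroxisomal enzymes. In sißCat-WT cells 8 of the 22 genes fell and 1 rose, where over all 14884 genes 4.97% fell and 5.2% rose (limma, adjusted p under 0.05, as for each call below). The genes that fell were the thioesterase ACOT2, the peroxisomal genes PEX11A, ACAA1 and HSD17B4, the isomerase ECI2, the flavoprotein dehydrogenase ETFDH, the carnitine acetyltransferase CRAT and the thiolase ACAA2. The one that rose was CROT, the carnitine octanoyltransferase. The median log2 difference was -0.17 for the 22 genes and 0.0054 for all genes. Of the 8 decreases 4 were at least 0.5 in log2, a size reached by 1.88% of all genes. These genes are brighter than most, with 20 of 22 at or above the 40th percentile of the mean level, and among all genes above that level 7.82% fell. The number that fell was 5 without siCtrl replicate 1, siCtrl replicate 3 or sißCat-WT replicate 2, and 4 without sißCat-WT replicate 3. CRAT and ACAA2 were not called without siCtrl replicate 2, nor were CRAT and ETFDH without sißCat-WT replicate 1. Over all genes 950, 917 and 957 were called in place of 1513 without siCtrl replicate 2, sißCat-WT replicate 2 and sißCat-WT replicate 3. With each of the 12 arrays left out in turn, that count ranged from 917 to 1616.

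Knockdown of the truncated form raised genes of activation, carnitine transfer and peroxisomal oxidation. In sißCat-mut cells 9 genes rose and 3 fell, where over all genes 12% rose and 13.6% fell. The genes that rose were PHYH, CROT, ACSL4, ACOT1, ACSL5, ETFDH, CRAT, ACOT8 and ACAA1, and 7 of them rose by at least 0.5 in log2, as did 4.97% of all genes. HADH, the acetoacetyl-CoA thiolase gene ACAT1 and the lipid droplet coat gene PLIN2 fell. The median log2 difference was 0.32, beside 0.011 over all genes. Among genes at or above the 40th percentile 17.5% rose and 21.3% fell. The 3 decreases are thus near the share over all genes. The number that fell was 1 without siCtrl replicate 1, siCtrl replicate 2 or sißCat-mut replicate 3.

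Knockdown of both forms raised 14 of the 22 genes, where 15.5% of all genes rose and, at or above the 40th percentile, 21.8%. They were CROT, PHYH, ACSM3, ETFDH, ACOT12, ACOT8, ACSL4, ACOT1, CRAT, ACAA1, ACAA2, ACSL5, PEX11A and HSD17B4, and 8 of them rose by at least 0.5 in log2, against 7.25% of all genes. In limma 0 genes fell after adjustment, while 18.1% of all genes did, and 2 were lower at an unadjusted p under 0.05 (HADH and PLIN2). HADH was called without sißCat-both replicate 1 and PLIN2 without sißCat-both replicate 3. The median log2 difference was 0.37, beside -0.0062 over all genes. The 3 comparisons share the siCtrl arrays, so their values stand side by side for each gene and are not independent of each other.

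**Figure D1:**
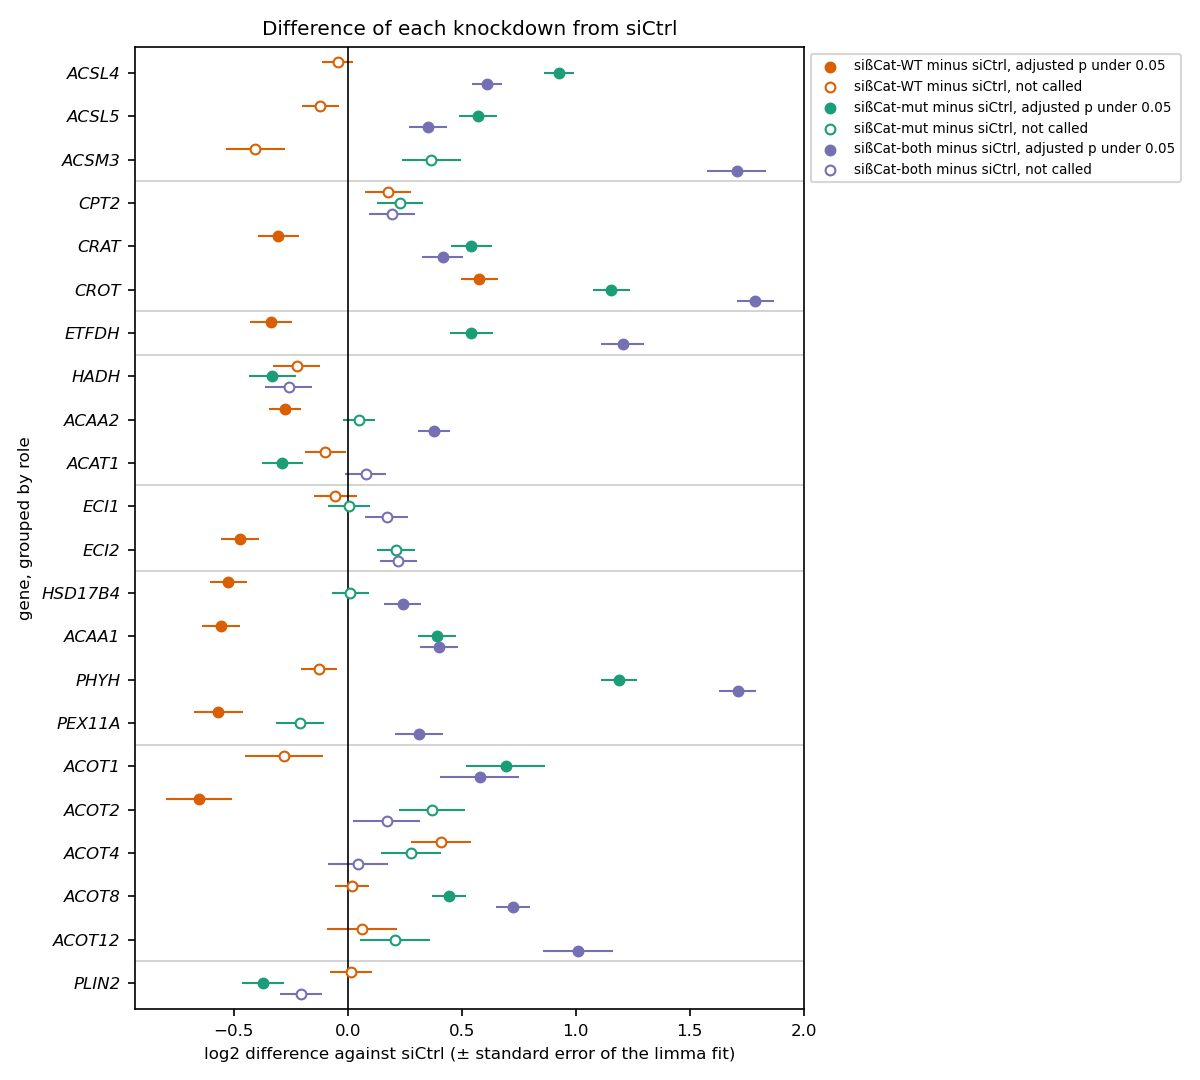
Log2 difference from siCtrl of each measured gene (horizontal axis, ± standard error of the limma fit) in sißCat-WT, sißCat-mut and sißCat-both cells, with genes grouped by role from activation at the top to PLIN2 at the bottom and filled points for an adjusted p under 0.05. CROT lies right of 0 in all 3 knockdowns, while ACOT2, PEX11A, ACAA1, HSD17B4 and ECI2 have their sißCat-WT points left of -0.4.

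Among the activating enzymes, ACSL4, a synthetase that prefers arachidonic acid, responded where the truncated form was targeted. Its levels were 11.02, 10.98 and 11.05 in sißCat-WT, 12.01, 11.99 and 11.96 in sißCat-mut, 11.59, 11.70 and 11.73 in sißCat-both and 11.03, 11.11 and 11.05 in siCtrl cells. The sißCat-mut arrays were the highest, the sißCat-both arrays lay between them and siCtrl, and the sißCat-WT arrays overlapped with siCtrl. The log2 difference from siCtrl was 0.93 ± 0.07 in sißCat-mut cells (± SE, n = 3 each, limma adjusted p = 4.6e-07) and 0.61 ± 0.07 in sißCat-both cells (limma adjusted p = 8.65e-06), and it was lower in sißCat-both than in sißCat-mut cells by a tested difference of -0.32 ± 0.07 (limma adjusted p = 0.00373). ACSL5, a synthetase known from liver and intestine, showed a smaller difference of the same kind. It stood at 9.62, 9.68 and 9.88 in sißCat-WT, 10.39, 10.47 and 10.39 in sißCat-mut, 10.23, 10.13 and 10.23 in sißCat-both and 9.76, 9.85 and 9.93 in siCtrl cells. The sißCat-mut and sißCat-both arrays were all above the siCtrl arrays, by 0.57 ± 0.08 and 0.35 ± 0.08 (limma adjusted p = 0.000157 and 0.004). ACSM3, a mitochondrial synthetase for medium chains, was highest after knockdown of both forms. Its levels were 7.33, 6.86 and 7.32 in sißCat-WT, 7.98, 8.03 and 7.82 in sißCat-mut, 9.10, 9.23 and 9.52 in sißCat-both and 7.58, 7.56 and 7.59 in siCtrl cells. The sißCat-both arrays lay more than 1 log2 unit above every other array. They exceeded siCtrl 3.26-fold (1.71 ± 0.13 in log2, limma adjusted p = 3.58e-07), whereas the differences in sißCat-WT and sißCat-mut cells, -0.40 ± 0.13 and 0.37 ± 0.13, did not pass the test (limma adjusted p = 0.0675 and 0.0529). Under 22 alternatives the sißCat-WT difference stayed uncalled in 18 and the sißCat-mut difference in 14, and each was called in the rest. Set against each other, the sißCat-mut arrays of ACSM3 were above the sißCat-WT arrays by 0.77 ± 0.13 (limma adjusted p = 0.000376).

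The carnitine transferases differed from each other. CROT moves medium-chain acyl groups from coenzyme A to carnitine in peroxisomes, so that shortened chains can leave for mitochondria. It stood at 6.27, 6.27 and 6.18 in sißCat-WT, 6.82, 6.91 and 6.72 in sißCat-mut, 7.30, 7.49 and 7.55 in sißCat-both and 5.64, 5.65 and 5.69 in siCtrl cells. No array of any group overlapped with another group, in the order sißCat-both, sißCat-mut, sißCat-WT and siCtrl from high to low. The differences from siCtrl were 0.58 ± 0.08 in sißCat-WT cells, 1.16 ± 0.08 in sißCat-mut cells and 1.79 ± 0.08 in sißCat-both cells, the last a 3.45-fold increase (± SE, n = 3 each, limma adjusted p = 0.000456, 3.07e-07 and 4.05e-09). CRAT, which buffers acetyl-CoA as acetylcarnitine, stood at 8.54, 8.59 and 8.58 in sißCat-WT, 9.54, 9.45 and 9.26 in sißCat-mut, 9.45, 9.19 and 9.22 in sißCat-both and 8.93, 8.84 and 8.85 in siCtrl cells. Its sißCat-WT arrays were below and its sißCat-mut and sißCat-both arrays above siCtrl. The increases of 0.54 ± 0.09 and 0.42 ± 0.09 had adjusted p = 0.000453 and 0.00215 in limma. The decrease in sißCat-WT cells, -0.30 ± 0.09 (limma adjusted p = 0.046), was not called when any 1 of the siCtrl or sißCat-WT arrays or sißCat-mut replicate 2 was left out (adjusted p 0.0602 to 0.149, differences -0.32 to -0.28). CPT2, the inner-membrane carnitine palmitoyltransferase, was called in no comparison of limma at the adjusted threshold. Its group means were 8.04 ± 0.10 in sißCat-WT, 8.10 ± 0.16 in sißCat-mut, 8.06 ± 0.17 in sißCat-both and 7.87 ± 0.03 in siCtrl cells (SD, n = 3 each). Its 2 probe sets disagreed in direction in sißCat-mut and sißCat-both cells, where the dimmer was below siCtrl. The dimmer had means of 5.84 in sißCat-WT, 5.64 in sißCat-mut, 5.70 in sißCat-both and 5.82 in siCtrl cells.

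ETFDH hands the electrons from acyl-CoA dehydrogenation to ubiquinone, and it was the only electron transfer gene measured of 3 on the list. Its levels were 6.70, 6.92 and 6.88 in sißCat-WT, 7.77, 7.76 and 7.61 in sißCat-mut, 8.29, 8.34 and 8.50 in sißCat-both and 7.24, 7.01 and 7.26 in siCtrl cells. The groups did not overlap, with sißCat-both highest and sißCat-WT lowest. The gene rose 2.31-fold in sißCat-both cells (1.21 ± 0.09 in log2, ± SE, n = 3 each, limma adjusted p = 4.44e-07) and by 0.54 ± 0.09 in sißCat-mut cells (adjusted p = 0.000687 in limma). It fell in sißCat-WT cells (-0.34 ± 0.09, limma adjusted p = 0.0372), a call lost without siCtrl replicate 1 or 3 or any 1 sißCat-WT array (adjusted p 0.0565 to 0.145, differences -0.38 to -0.27).

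ACAA2, the thiolase that ends the cycle, had means of 9.86 ± 0.07 in sißCat-WT, 10.18 ± 0.06 in sißCat-mut, 10.51 ± 0.06 in sißCat-both and 10.13 ± 0.04 in siCtrl cells (SD, n = 3 each). It rose in sißCat-both cells by 0.38 ± 0.07 (limma adjusted p = 0.000767), and in sißCat-WT cells its difference was -0.28 ± 0.07 (limma adjusted p = 0.0242), a call lost without any 1 siCtrl array or sißCat-WT replicate 2 or 3 (adjusted p 0.0524 to 0.109, differences -0.30 to -0.23). HADH, the dehydrogenase for short-chain hydroxyacyl-CoA, had means of 7.86 ± 0.10 in sißCat-WT, 7.75 ± 0.14 in sißCat-mut, 7.82 ± 0.18 in sißCat-both and 8.08 ± 0.09 in siCtrl cells (SD, n = 3 each), with siCtrl the highest. Only the sißCat-mut difference, -0.33 ± 0.10, passed (limma adjusted p = 0.0304), and not without siCtrl replicate 1 or 2 or sißCat-mut replicate 2 or 3 (adjusted p 0.0592 to 0.131, differences -0.35 to -0.25). ACAT1, which acts in ketone body and isoleucine metabolism, had means of 6.84 ± 0.08 in sißCat-WT, 6.66 ± 0.13 in sißCat-mut, 7.02 ± 0.14 in sißCat-both and 6.94 ± 0.07 in siCtrl cells (SD, n = 3 each). Its sißCat-mut difference was -0.29 ± 0.09 (limma adjusted p = 0.0323), lost without siCtrl replicate 1 or 2 or sißCat-mut replicate 1 or 3 (adjusted p 0.0616 to 0.137, differences -0.30 to -0.22). Auxiliary isomerases move double bonds of unsaturated chains to where the cycle can use them. ECI1, of mitochondria, had group means from 9.95 to 10.18 and no called difference from siCtrl. ECI2, found in peroxisomes and mitochondria, stood at 7.53, 7.38 and 7.56 in sißCat-WT, 8.29, 8.19 and 8.04 in sißCat-mut, 8.23, 8.15 and 8.18 in sißCat-both and 7.91, 8.05 and 7.92 in siCtrl cells. Its sißCat-WT arrays were all below the other groups, by -0.47 ± 0.08 from siCtrl (limma adjusted p = 0.00214).

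Of the peroxisomal genes PHYH, ACAA1, HSD17B4 and PEX11A, PHYH had the largest differences in sißCat-mut and sißCat-both cells and the smallest in sißCat-WT cells. It hydroxylates phytanoyl-CoA, the first step in breaking down a branched chain from the diet, and its levels were 7.75, 7.71 and 7.77 in sißCat-WT, 9.15, 9.14 and 8.88 in sißCat-mut, 9.60, 9.60 and 9.54 in sißCat-both and 7.85, 7.93 and 7.83 in siCtrl cells. The sißCat-both and sißCat-mut arrays lay about 1 log2 unit or more above siCtrl without overlapping each other. The gene rose 2.28-fold in sißCat-mut cells and 3.27-fold in sißCat-both cells (1.19 ± 0.08 and 1.71 ± 0.08 in log2, ± SE, n = 3 each, limma adjusted p = 2.49e-07 and 5.57e-09), while the sißCat-WT difference was -0.13 ± 0.08 (limma adjusted p = 0.421). ACAA1, the peroxisomal thiolase, stood at 7.14, 7.10 and 7.07 in sißCat-WT, 8.08, 8.06 and 8.01 in sißCat-mut, 8.14, 7.88 and 8.16 in sißCat-both and 7.59, 7.66 and 7.72 in siCtrl cells. Its sißCat-WT arrays were the lowest and its sißCat-mut and sißCat-both arrays the highest. It fell 1.47-fold in sißCat-WT cells (-0.56 ± 0.08, limma adjusted p = 0.000734) and rose by 0.39 ± 0.08 and 0.40 ± 0.08 in the other knockdowns (limma adjusted p = 0.00297 and 0.00165). HSD17B4, the bifunctional enzyme of branched-chain and bile acid side-chain oxidation, stood at 9.51, 9.38 and 9.39 in sißCat-WT, 9.94, 9.96 and 9.98 in sißCat-mut, 10.12, 10.14 and 10.31 in sißCat-both and 9.82, 10.04 and 9.99 in siCtrl cells. The sißCat-WT arrays were lower than all others, while the sißCat-mut arrays overlapped with siCtrl. It fell by 0.52 in log2 in sißCat-WT cells (SE 0.08, limma adjusted p = 0.000984). Its increase in sißCat-both cells, 0.24 ± 0.08 (limma adjusted p = 0.0348), was lost without siCtrl replicate 1 or 3 or sißCat-both replicate 3 (adjusted p 0.0575 to 0.156, differences 0.18 to 0.26). PEX11A, which promotes peroxisome division, stood at 5.49, 5.37 and 5.66 in sißCat-WT, 5.77, 6.02 and 5.81 in sißCat-mut, 6.34, 6.28 and 6.55 in sißCat-both and 6.04, 6.22 and 5.96 in siCtrl cells. Again the sißCat-WT arrays were the lowest and the sißCat-both arrays the highest. It fell 1.48-fold in sißCat-WT cells (-0.57 ± 0.11, limma adjusted p = 0.00354), and its increase of 0.31 ± 0.11 in sißCat-both cells (limma adjusted p = 0.0345) was lost without siCtrl replicate 1 or 3 or sißCat-both replicate 3 (adjusted p 0.0937 to 0.143, differences 0.23 to 0.30).

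Thioesterases release free fatty acid from coenzyme A, and all 5 on the list were measured. ACOT1, ACOT2 and ACOT4 lie near one another on chromosome 14 and encode the cytosolic, mitochondrial and peroxisomal enzymes. ACOT1 and ACOT2 are near-identical in sequence, so their probe sets may share signal and the value of either gene is uncertain. ACOT1 stood at 7.77, 7.55 and 7.33 in sißCat-WT, 8.75, 8.27 and 8.56 in sißCat-mut, 8.78, 8.35 and 8.09 in sißCat-both and 7.92, 7.62 and 7.95 in siCtrl cells. Its sißCat-mut and sißCat-both arrays were above siCtrl, and the replicates of each group spread more widely than for most genes here. It rose by 0.69 ± 0.17 in sißCat-mut cells (± SE, n = 3 each, limma adjusted p = 0.00853) and by 0.58 ± 0.17 in sißCat-both cells (limma adjusted p = 0.0181). The sißCat-both increase was not called without siCtrl replicate 2 or sißCat-both replicate 1 (0.48 and 0.39, adjusted p = 0.0823 and 0.0845). ACOT2 stood at 9.33, 9.06 and 8.96 in sißCat-WT, 10.33, 10.19 and 9.90 in sißCat-mut, 10.28, 9.85 and 9.69 in sißCat-both and 9.80, 9.75 and 9.76 in siCtrl cells. Only in sißCat-WT cells did it pass the test against siCtrl, with a 1.57-fold decrease (-0.65 ± 0.15, limma adjusted p = 0.0113) that was lost without sißCat-WT replicate 3 (-0.57, adjusted p = 0.059). The peroxisomal ACOT8 stood at 7.65, 7.76 and 7.81 in sißCat-WT, 8.14, 8.17 and 8.19 in sißCat-mut, 8.45, 8.39 and 8.50 in sißCat-both and 7.74, 7.61 and 7.80 in siCtrl cells. The sißCat-both arrays were the highest, the sißCat-mut arrays next, and the sißCat-WT arrays overlapped with siCtrl. It rose by 0.72 ± 0.07 and 0.44 ± 0.07 (limma adjusted p = 4.75e-06 and 0.000511 in sißCat-both and sißCat-mut cells). ACOT12, a cytosolic acetyl-CoA hydrolase, stood at 3.34, 3.27 and 2.99 in sißCat-WT, 3.43, 3.36 and 3.24 in sißCat-mut, 3.88, 3.97 and 4.59 in sißCat-both and 3.06, 3.16 and 3.19 in siCtrl cells. All of these values lie below the array medians, with the sißCat-both arrays the highest. They exceeded siCtrl by 1.01 ± 0.15 (limma adjusted p = 0.000146), a size that is uncertain at such levels. ACOT4, equally dim, had means of 3.82 ± 0.04 in sißCat-WT, 3.68 ± 0.28 in sißCat-mut, 3.45 ± 0.16 in sißCat-both and 3.41 ± 0.17 in siCtrl cells (SD, n = 3 each) and no called difference from siCtrl. PLIN2, which coats lipid droplets and is a known target of PPARs, had means of 7.57 ± 0.13 in sißCat-WT, 7.19 ± 0.05 in sißCat-mut, 7.35 ± 0.16 in sißCat-both and 7.56 ± 0.06 in siCtrl cells (SD, n = 3 each). It fell by 0.37 in sißCat-mut cells (SE 0.09, limma adjusted p = 0.00843).

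**Figure D2:**
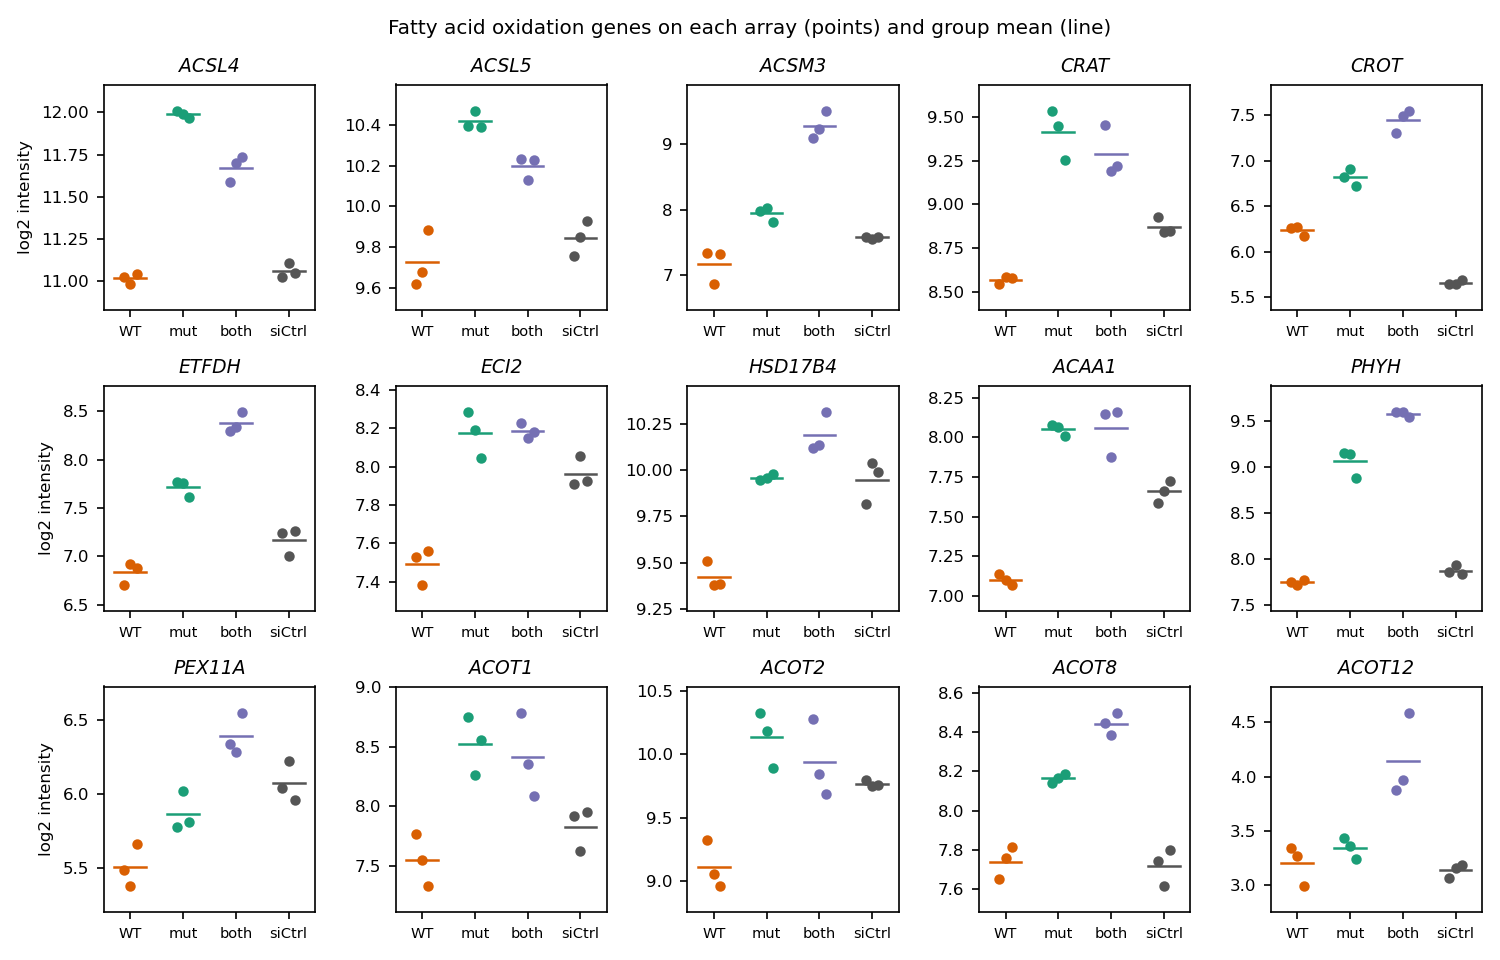
Log2 intensity of 15 genes on each of the 12 arrays (points) with the mean of each group (line), for sißCat-WT, sißCat-mut, sißCat-both and siCtrl cells from left to right. Vertical axes differ between panels and do not start at 0. CROT, ETFDH, ACSM3 and PHYH each show 4 groups that do not overlap, and the sißCat-both arrays of ACSM3 lie at 9.10 to 9.52. The share of all genes with such a separation was not counted.

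Set directly against each other, the knockdowns of the single forms were far apart. In sißCat-mut against sißCat-WT cells 15 of 22 genes were higher and 1 was lower, where 14% and 17% of all genes were, and 20.3% were higher among those at or above the 40th percentile of level. The largest difference was that of PHYH, 1.32 ± 0.08 in log2 or 2.49-fold (± SE, n = 3 each, limma adjusted p = 4e-08). ACOT2 differed by 1.02 ± 0.15, ACOT1 by 0.97 ± 0.17, ACSL4 by 0.97 ± 0.07 and ACAA1 by 0.95 ± 0.08 (limma adjusted p = 0.000101, 0.000589, 1.3e-07 and 1.22e-06). PLIN2 was the gene that was lower, by -0.39 ± 0.09 (limma adjusted p = 0.00532). CPT2, HADH, ACAT1, ECI1, ACOT4 and ACOT12 were not called. The median over the 22 genes was 0.56, beside 0.0013 over all genes. PEX11A, 0.36 ± 0.11 (limma adjusted p = 0.0183), was not called without sißCat-WT replicate 1 or 2 or sißCat-mut replicate 2 (adjusted p 0.0534 to 0.0865, differences 0.28 to 0.35).

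Targeting both forms rather than the full-length form alone raised 16 genes and lowered 1, where 16.1% and 20.1% of all genes rose and fell and 22.7% rose among those at or above the 40th percentile. ACSM3 was 4.32-fold higher, PHYH 3.57-fold, ETFDH 2.91-fold and CROT 2.31-fold (2.11 ± 0.13, 1.84 ± 0.08, 1.54 ± 0.09 and 1.21 ± 0.08 in log2, ± SE, n = 3 each, limma adjusted p = 3.37e-08, 1.76e-09, 3.27e-08 and 6.99e-08). The lower gene was the dim ACOT4 at -0.37 ± 0.13 (limma adjusted p = 0.0432), a call lost without siCtrl replicate 2, any 1 sißCat-WT array or sißCat-both replicate 2 or 3 (adjusted p 0.0542 to 0.129, differences -0.39 to -0.31). ECI1, at 0.23 ± 0.09, was not called (limma adjusted p = 0.0776) but passed with the replicate number as a block (adjusted p = 0.0229). Against the truncated form alone, 9 genes were higher in sißCat-both cells and 1 was lower, where 10.6% and 11.6% of all genes were and 15.2% were higher among the brighter genes. ACSM3 was again the furthest, at 1.34 ± 0.13 (limma adjusted p = 9.31e-06), followed by ACOT12 at 0.80 ± 0.15, ETFDH at 0.66 ± 0.09 and CROT at 0.63 ± 0.08 (limma adjusted p = 0.00186, 0.000204 and 8.54e-05). ACSL4 was the lower gene. ACOT8, at 0.28 ± 0.07 (limma adjusted p = 0.0146), was not called without sißCat-both replicate 3 (0.25, adjusted p = 0.055).

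Whether the truncated form's knockdown had the same effect with and without the full-length form was tested as the departure from additivity, the sißCat-both minus sißCat-WT difference less the sißCat-mut minus siCtrl difference. These differences have no array in common. Of 22 genes 10 had a positive and 1 a negative departure that passed, where 7.6% and 8.79% of all genes did and 11.4% had a positive one among the brighter genes. ACSM3 departed by 1.74 ± 0.18, PEX11A by 1.09 ± 0.15, ETFDH by 1.0 ± 0.13 and HSD17B4 by 0.75 ± 0.12 (± SE, limma adjusted p = 3.53e-05, 0.00029, 0.000233 and 0.000585). For HSD17B4 the difference was 0.76 ± 0.08 in sißCat-both against sißCat-WT cells and 0.011 ± 0.08 in sißCat-mut against siCtrl cells. For CROT, whose departure did not pass, the same differences were 1.21 ± 0.08 and 1.16 ± 0.08, and the departure was 0.053 ± 0.11 (limma adjusted p = 0.826). The sißCat-both cells received an RNA of their own, so the departure also holds any difference in how well each RNA lowered its target, which was not tested.

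**Figure D3:**
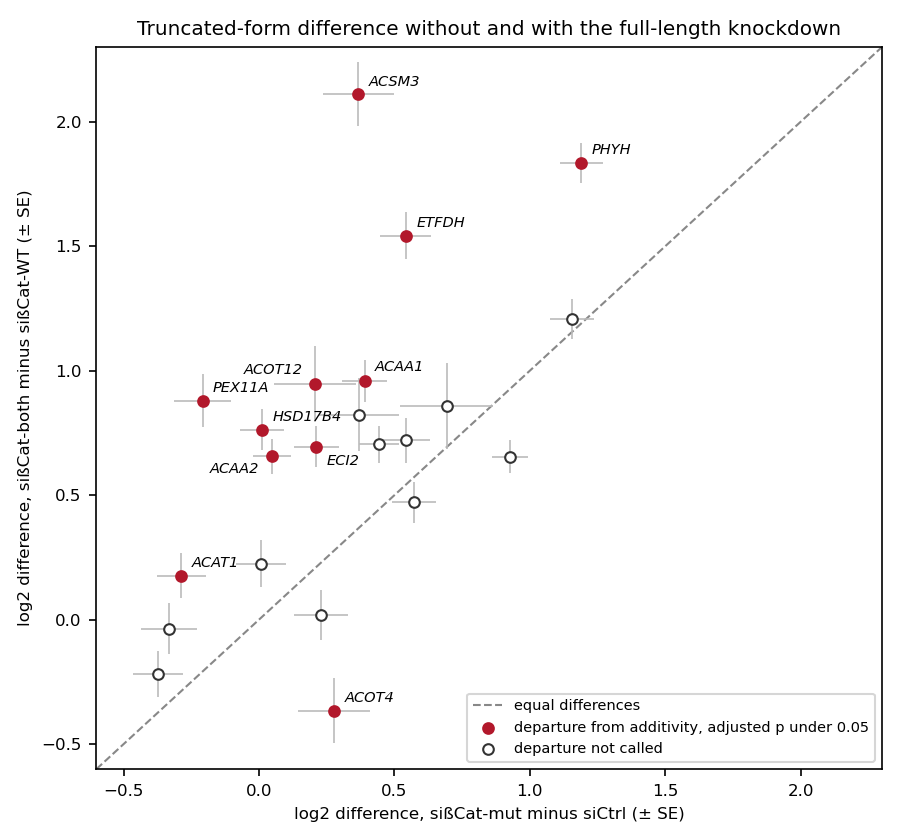
Log2 difference of sißCat-both minus sißCat-WT (vertical axis) against sißCat-mut minus siCtrl (horizontal axis) for the 22 genes, each ± standard error, with the line of equal differences. Of the 11 filled points, whose departure from additivity had an adjusted p under 0.05, 10 lie above the line and ACOT4 below it.

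Related genes were taken from lists written for this purpose. For each list the shares over all genes to set beside its counts are 5.2% higher and 4.97% lower in sißCat-WT cells, 12% and 13.6% in sißCat-mut cells, and 15.5% and 18.1% in sißCat-both cells. Of 11 measured genes for rate-limiting steps, receptors and their regulators 3 fell in sißCat-WT cells, 6 rose and 1 fell in sißCat-mut cells, and the same numbers rose and fell in sißCat-both cells, with median log2 differences of 0.07, 0.27 and 0.30. CPT1A, which controls entry into mitochondria, differed from siCtrl by 0.19 ± 0.08, 1.49 ± 0.08 and 1.85 ± 0.08 in sißCat-WT, sißCat-mut and sißCat-both cells (limma adjusted p = 0.161, 4.08e-08 and 2.95e-09). PPARA, the receptor that governs the pathway in liver, differed by -0.60 ± 0.10, 0.89 ± 0.10 and 1.39 ± 0.10 (limma adjusted p = 0.00174, 2.09e-05 and 2.39e-07), and ACSL1, the main long-chain synthetase of liver, by 0.22 ± 0.10, 0.72 ± 0.10 and 1.45 ± 0.10 (limma adjusted p = 0.237, 0.000166 and 2.33e-07). Of 23 other thioesterases and acyl-CoA enzymes 1 rose and 3 fell in sißCat-WT cells, 7 rose and 3 fell in sißCat-mut cells, and 11 rose and 4 fell in sißCat-both cells (medians -0.07, 0.05 and 0.22). The 1 that rose in sißCat-WT cells, the 3 that fell in sißCat-mut cells and the 4 that fell in sißCat-both cells are near the shares over all genes. The largest increases in sißCat-both cells were those of 3 medium-chain synthetases of the ACSM family, with ACSM2B at 3.50 ± 0.22, ACSM5 at 1.38 ± 0.11 and ACSM1 at 1.34 ± 0.12 (limma adjusted p = 7.59e-08, 6.03e-07 and 1.77e-06). In sißCat-mut cells their differences were 1.67 ± 0.22, 0.47 ± 0.11 and 0.69 ± 0.12 (limma adjusted p = 8.14e-05, 0.0057 and 0.000779). A further member of the family, ACSM4, named after its values were seen, rose less, by 0.31 ± 0.08 in sißCat-both cells (limma adjusted p = 0.00646). ACSM2B has a near-identical copy, ACSM2A, so its value is uncertain for the single gene. ACSM1 and ACSM4 lie near the floor, at siCtrl means of 4.36 and 4.23, so the sizes of their differences are uncertain.

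Of 16 measured genes that build and divide peroxisomes, 1 rose and 1 fell in sißCat-WT cells, 2 rose and 3 fell in sißCat-mut cells, and 2 rose and 1 fell in sißCat-both cells, with medians of 0.02, -0.06 and 0.01. In sißCat-WT and sißCat-mut cells the share called in either direction was not below that over all genes (10.2% and 25.6%), and in sißCat-both cells it was (33.6%). The hydrogen peroxide scavenger CAT, placed in this list, differed by -0.39 ± 0.07 in sißCat-WT cells and 0.70 ± 0.07 in sißCat-both cells (limma adjusted p = 0.00161 and 2.37e-06), and the import factors PEX5 and PEX10 by -0.37 ± 0.08 and -0.38 ± 0.12 in sißCat-mut cells (limma adjusted p = 0.00428 and 0.0326). Of 18 measured lipid droplet genes, 1 rose and 5 fell in sißCat-WT cells, 7 rose and 2 fell in sißCat-mut cells, and 8 rose and 6 fell in sißCat-both cells (medians -0.17, 0.12 and 0.15). The 1 that rose in sißCat-WT cells and the 2 that fell in sißCat-mut cells are near the shares over all genes. ABHD5, the co-activator of triglyceride lipolysis, and DGAT2, an enzyme of triglyceride synthesis, rose in sißCat-both cells by 1.48 ± 0.11 and 1.38 ± 0.08, and the droplet protein gene CIDEC fell by 1.11 in sißCat-WT cells and rose by 1.28 ± 0.14 in sißCat-mut cells (limma adjusted p = 3.75e-07, 5.42e-08, 0.000222 and 1.52e-05). PNPLA2 and DGAT1, named after their values were seen, were among the 6 that fell in sißCat-both cells. They differed from siCtrl by -0.45 ± 0.07 and -0.34 ± 0.11 (limma adjusted p = 0.000329 and 0.0345).

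Only a few genes of the remaining lists were measured. Of 4 for fatty acid uptake and binding 1 rose in sißCat-mut cells and 3 rose in sißCat-both cells (medians 0.02 and 0.52), where the fatty acid receptor CD36 rose by 1.68 ± 0.16 against a siCtrl mean of 3.92 near the floor, the tethering protein gene ACBD5 by 0.67 ± 0.09 and ACBD3 by 0.37 ± 0.08 (limma adjusted p = 2.35e-06, 5.17e-05 and 0.00263). Of 4 for ketone bodies, AACS, which returns acetoacetate to lipid synthesis, fell by 0.32 in sißCat-WT cells and by 0.57 in sißCat-both cells (limma adjusted p = 0.00584 and 1.06e-05). Of 5 for the pyruvate dehydrogenase complex and its control 1 rose and 1 fell in sißCat-WT cells, 1 rose in sißCat-mut cells, and 2 rose and 2 fell in sißCat-both cells. The phosphatase gene PDP1 rose in each knockdown, by 0.62 ± 0.12, 0.47 ± 0.12 and 0.47 ± 0.12 (limma adjusted p = 0.00355, 0.00883 and 0.00599), while the subunit genes PDHB and DLAT had called decreases, -0.35 ± 0.08 in sißCat-WT and -0.38 ± 0.10 in sißCat-both cells (limma adjusted p = 0.0113 and 0.0072). PDP1 lies near the array medians, at a siCtrl mean of 4.84, so the size of its increases is uncertain. In sißCat-both cells the subunit gene DLD rose by 0.26 ± 0.07 and PDHA1 fell by 0.20 (limma adjusted p = 0.0107 and 0.0407), both named after their values were seen. Of 8 listed for carnitine supply only ETNPPL was measured, an enzyme of phosphoethanolamine breakdown that had been listed there in error and differed by -0.17 ± 0.09, 0.58 ± 0.09 and -0.28 ± 0.09 in sißCat-WT, sißCat-mut and sißCat-both cells (limma adjusted p = 0.295, 0.000198 and 0.0204), and the 9 genes of omega oxidation were not analysed here.

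**Figure D4:**
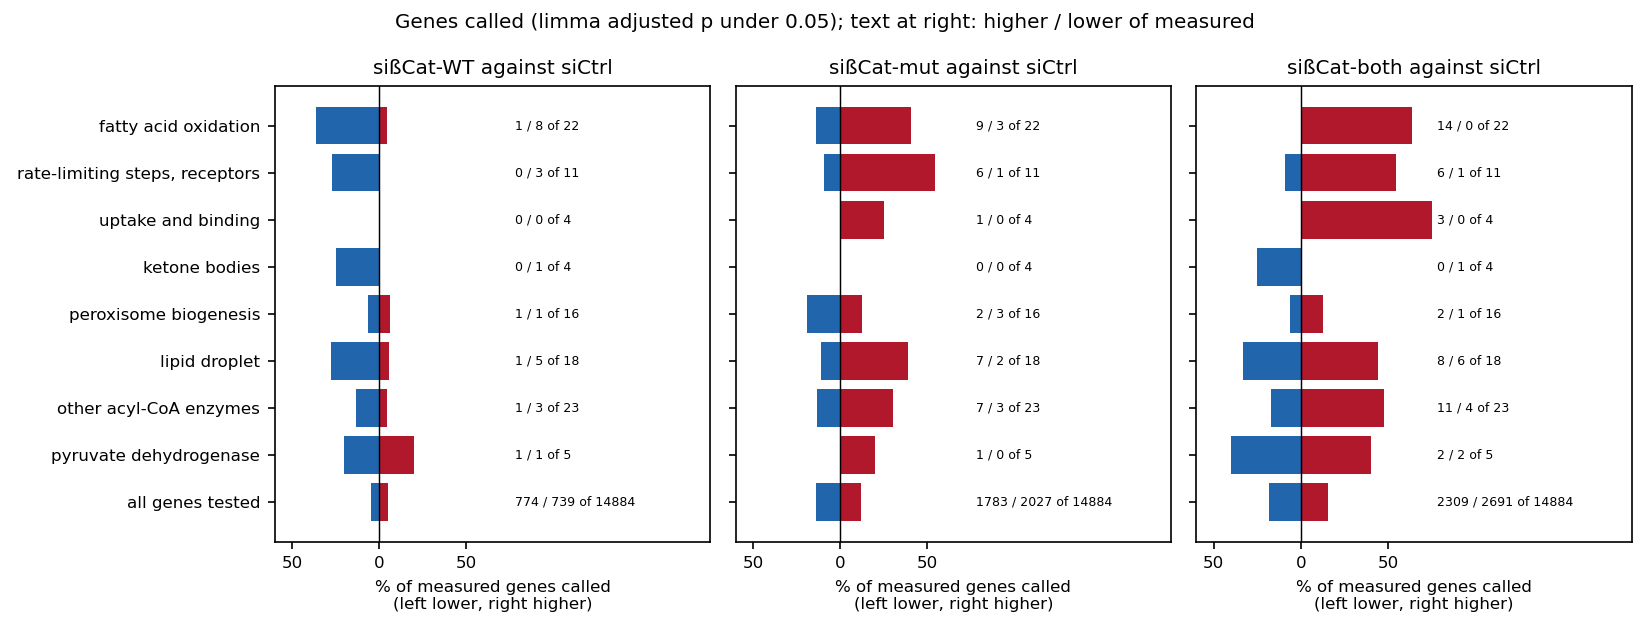
Percentage of the measured genes of each list that were called higher (red, right of 0) or lower (blue, left of 0) against siCtrl in sißCat-WT, sißCat-mut and sißCat-both cells, with the counts printed at the right and all genes tested in the bottom row. In sißCat-both cells 14 of 22 fatty acid oxidation genes were called higher, beside 2 of 16 peroxisome biogenesis genes and 2309 of 14884 genes.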

How the data were processed

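Total RNA of HepG2 cells at 120 h was measured on 12 Affymetrix arrays, 3 for each of 4 groups. The authors deposited log2 intensities, 1 per probe set and array, and per the submitters' processing notes RMA was run in Expression Console 1.1 of Affymetrix. RMA corrects background and normalizes between arrays, so a shift shared by all genes is removed. The log2 scale was read from the values. For library files and annotation build, the sources used here give nothing. Of 53617 probe sets 16098 had 1 gene symbol in the platform annotation, 0 had several, and 37519 were not listed. For the 779 genes with more than 1 probe set the one with the highest mean was used. All 14884 genes were fitted in limma 3.58.1 (R 4.3.3) with 4 group means (8 residual degrees of freedom), 7 contrasts and Benjamini-Hochberg adjustment within each, with a call at an adjusted p under 0.05. No replicate block was used. Same-numbered arrays deviated together most evenly for sißCat-both against sißCat-WT (correlations 0.115, 0.155 and 0.134), where the blocked value is given if it changed the call. The correlations were 0.0951, 0.0577 and 0.118 for sißCat-mut against sißCat-WT, and 0.117, 0.00764 and 0.108 for sißCat-both against sißCat-mut. Against siCtrl they were 0.121, 0.00366 and 0.189 for sißCat-WT, 0.117, 0.0381 and 0.0829 for sißCat-mut and 0.00129, -0.047 and 0.12 for sißCat-both. The labels state no block.

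Values on each array are given for genes called with a log2 difference of at least 0.5 and arrays that did not overlap, against siCtrl or between sißCat-mut and sißCat-WT. Of each related list up to 3 called genes with the largest differences are named. The genes and lists were chosen with earlier results of these data known. On simulated data for sißCat-WT against siCtrl with all 14884 genes, 70.1% of 67 changes of 0.5, 98.5% of 67 changes of 1 and 100% of 66 changes of 2 in log2 were recovered, with 11 false among 190 calls. Far fewer genes were changed there than the 1513 called in the real comparison. Recovery with that many changed genes, or of changes under 0.5, was not measured. The number of arrays limits the precision. Alternatives were quantile normalization again, median centring, leaving out genes under the 40th percentile, the mean of probe sets, trended and robust priors, only the groups compared, a replicate block, array weights and leaving out each array. Promoter sequences are from RefSeq (GRCh38.p14).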

Additional observations from a re-analysis of the deposited data

Results flagged for a closer look

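For 11 genes the departure from additivity passed the test (limma, adjusted p over all 14884 genes, 3 arrays per group). Of all 14884 genes 16.4% had a called departure, in either direction. It is the sißCat-both minus sißCat-WT difference less the sißCat-mut minus siCtrl difference. The sißCat-both cells received an RNA of their own. The departure thus also holds any difference in how well each RNA lowered its target, which was not tested. In log2, the departure from additivity was 1.74 for ACSM3 (adjusted p = 3.53e-05), 1.09 for PEX11A (adjusted p = 0.00029), 1.0 for ETFDH (adjusted p = 0.000233), 0.75 for HSD17B4 (adjusted p = 0.000585) and 0.65 for PHYH (adjusted p = 0.00153). It was 0.61 for ACAA2 (adjusted p = 0.000985), 0.57 for ACAA1 (adjusted p = 0.00457) and 0.48 for ECI2 (adjusted p = 0.0116). For PEX11A the difference was 0.88 in sißCat-both against sißCat-WT cells and -0.21 in sißCat-mut against siCtrl cells, and for ACAA2 it was 0.66 and 0.05 in the same comparisons.

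The departures of ACAT1 (0.46, adjusted p = 0.0249), ACOT12 (0.74, adjusted p = 0.0323) and ACOT4 (-0.64, adjusted p = 0.0305) depended on single arrays in limma. That of ACAT1 was not called without siCtrl replicate 1 or 2, sißCat-WT replicate 3, sißCat-both replicate 3 or sißCat-mut replicate 3 (0.39 to 0.45, adjusted p 0.055 to 0.0633). That of ACOT12 was not called without siCtrl replicate 2 or 3, sißCat-WT replicate 3 or sißCat-mut replicate 2 or 3 (0.63 to 0.75, adjusted p 0.058 to 0.0819). That of ACOT4 was not called without siCtrl replicate 3, any 1 sißCat-WT array, sißCat-both replicate 2 or 3 or sißCat-mut replicate 1 (-0.66 to -0.48, adjusted p 0.0501 to 0.0781). ACOT4 and ACOT12 lie below the array medians.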

How the results depend on the processing

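No difference of a single gene reversed its direction while called under the alternatives run. Leaving out each array in turn, the number of the 22 genes called was 5 to 10 in sißCat-WT against siCtrl, with 5 without sißCat-WT replicate 3, 10 to 14 in sißCat-mut against siCtrl and 12 to 15 in sißCat-both against siCtrl. It was 15 to 16 in sißCat-mut against sißCat-WT, 16 to 17 in sißCat-both against sißCat-WT, 9 to 11 in sißCat-both against sißCat-mut and 8 to 11 for the departure from additivity. Over all genes tested the calls ranged over 917 to 1616, 3094 to 3930, 4364 to 4998, 3983 to 4754, 4820 to 5387, 2590 to 3371 and 1912 to 2589 in the same order. Under the other alternatives the ranges for the 22 genes were 9 to 11, 11 to 15, 12 to 15, 16 to 17, 16 to 18, 8 to 12 and 10 to 12 in that order. Over all genes tested they were 1430 to 2087, 3489 to 4347, 4540 to 5206, 4280 to 4886, 4854 to 5623, 2429 to 3538 and 2324 to 2704. With the replicate number as a block the counts were 10, 13, 15, 16, 18, 10 and 12, beside 1669, 4024, 5206, 4791, 5623, 3523 and 2607 over all genes. Outside sißCat-both against sißCat-WT same-numbered arrays deviated together less evenly, and whether they share a batch was not tested. There the block added calls for ACOT4 in sißCat-WT (limma adjusted p = 0.0207), ACOT2 in sißCat-mut (limma adjusted p = 0.0147) and HADH in sißCat-both cells (limma adjusted p = 0.0334) against siCtrl, and for the departure of ACOT2 (limma adjusted p = 0.0424). Leaving out the first arrays of the sißCat-mut and sißCat-both groups was chosen after seeing the data and gave 10, 11, 13, 17, 17, 8 and 10. Over all genes it gave 1564, 3489, 4853, 4280, 5225, 2898 and 2339. The causes of these changes were not tested. ACOT4 and ACOT12 have no value where genes under the 40th percentile were left out. Low signal limits what can be read from genes near the array medians, and the extent of knockdown was not measured here.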
